A study of Mus musculus with 59 samples.

Results

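The genes described here are 47 genes of the G2 phase and mitosis, of 18193 genes measured in mouse liver. They were taken from a list of 48 symbols, and every symbol with an Affymetrix probe set annotated to that symbol alone was kept. Ccnb1 was dropped, since its only probe set carries several symbols. Where a gene had several probe sets, the one with the highest mean was used. Livers were from mice of 4 weeks (1 month) whose background mixed FVB/NT with 129S1/Svlmj and C57BL/6NT, with no treatment named. The genotypes were wild type (wt, 12 arrays), an E2f3a knock-out (3aKO, 10 arrays), an E2F1 knock-in (1KI, 10 arrays) and an E2F3b knock-in (3bKI, 5 arrays). The sources used here do not name the locus of the knock-ins, the promoter that drives them or the zygosity. The arrays came in 2 normalizations, the first with wt, 3aKO and 1KI and the second with the same wt and 3aKO arrays and 3bKI, so 1KI and 3bKI were never set against each other.

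To divide, a cell that has copied its DNA builds up cyclin A and cyclin B, which activate the kinase Cdk1. The kinases Plk1 and the Auroras then shape the spindle, the kinetochores attach to it, and the anaphase-promoting complex with Cdc20 destroys cyclin B and securin so that the chromatids part. These genes are switched on together late in the cycle by the MuvB complex, which represses them with p130 or p107 and E2F4 in resting cells and activates them with B-MYB and FOXM1 in dividing ones, at promoter elements called the CHR and the CCAAT box. In the liver of a young mouse hepatocytes are still dividing and becoming polyploid, and most have left the cycle in the adult.

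The promoter sequences are shown because 4 of them carry the elements that mark this group of genes and that of Mad2l1 does not. They are the 150 bases before the start of Cdk1 (the mitotic kinase), Cdc20 (activator of the anaphase-promoting complex), Ube2c (its ubiquitin-conjugating enzyme), Top2a (the topoisomerase that untangles chromatids) and Mad2l1 (the spindle checkpoint protein that holds Cdc20), from RefSeq on build GRCm38.p6. Each is written 5′ to 3′ on the strand of the gene. Capitals mark the CHR (TTTGAA, or TTCAAA on the other strand), the CCAAT box (CCAAT or ATTGG) and, in Cdk1 alone, an E2F motif (TTTCGCGC).
Cdk1, chr10:69352913-69353062, minus strand: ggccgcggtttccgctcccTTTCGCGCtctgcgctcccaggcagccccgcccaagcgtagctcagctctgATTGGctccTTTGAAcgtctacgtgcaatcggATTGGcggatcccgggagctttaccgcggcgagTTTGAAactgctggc
Cdc20, chr4:118437344-118437493, minus strand: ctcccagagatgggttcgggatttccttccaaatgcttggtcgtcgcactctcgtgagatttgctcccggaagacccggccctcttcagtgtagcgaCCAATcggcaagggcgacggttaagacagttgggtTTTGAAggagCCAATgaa
Ube2c, chr2:164769779-164769928, plus strand: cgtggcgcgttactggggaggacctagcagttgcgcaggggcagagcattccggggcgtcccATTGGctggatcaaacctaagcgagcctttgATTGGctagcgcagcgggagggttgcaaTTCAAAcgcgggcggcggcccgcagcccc
Top2a, chr11:99024190-99024339, minus strand: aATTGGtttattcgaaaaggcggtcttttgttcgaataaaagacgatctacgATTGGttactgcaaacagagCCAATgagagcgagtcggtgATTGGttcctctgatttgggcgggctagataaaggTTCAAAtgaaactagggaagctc
Mad2l1, chr6:66535071-66535220, plus strand: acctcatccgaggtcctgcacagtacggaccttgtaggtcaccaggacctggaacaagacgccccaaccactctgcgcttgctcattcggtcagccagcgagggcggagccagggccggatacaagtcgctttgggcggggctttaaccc

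Of the 47 genes, 38 matched a promoter in the RefSeq table, which spans 250 bases before to 50 after the start. The CHR letters were found, on either strand, in 28 of them (73.7%) and in 18.1% of all 27025 promoters of the same length. The CCAAT box was in 29 (76.3%) and in 37.9% of all promoters. Both stood in 25 of the 38 (65.8%) and in 7.12% of all. An E2F motif (TTTCCCGC, TTTGGCGC, TTTGCCGC or TTTCGCGC, none of which overlaps the other motifs) was in 1 of 38 (2.63%) and in 2.32% of all. The Mad2l1 window held none of these letters. A match is a description of the letters and no evidence of a bound factor.

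Signal is given on the log2 scale of the deposited values, where 1 unit is a doubling. Of the 47 genes, 12 had a mean above that of the median gene in the first normalization (13 in the second). The mean of 11 hepatocyte markers per array ran from 13.31 to 13.48 in wt (median 13.36), from 13.26 to 13.49 in 3aKO (median 13.39) and from 13.43 to 13.61 in 1KI (median 13.57) of the first normalization. It was thus high in every array and highest in 1KI at the median, and in the second it ran from 13.30 to 13.49 in 3bKI. Array controls did not lie alike in all groups. The hybridization controls (bacterial transcripts spiked in after labelling) were at 9.86 to 10.50 in all 3aKO arrays and 10 of 12 wt arrays, and at 11.00 or more in wt replicates 1 and 2 and in all knock-in arrays of both kinds. The 3′ minus 5′ difference of Gapdh and Actb, a sign of RNA quality, was 0.445 to 0.665 in 9 of 10 1KI arrays and 1.75 in 1KI replicate 6, against 0.48 to 0.645 in wt. In 3bKI that difference was 0.28 to 0.36, below every wt array, and the poly-A spike-in controls stood at 13.77 or more, against at most 9.70 in wt. Xist and Y-linked signals split the arrays, with Xist signal in 5 of 12 for wt, 5 of 10 for 3aKO, 5 of 10 for 1KI and 2 of 5 for 3bKI and Y-linked signal in the rest. The labels do not give the sex and do not say that arrays came from separate animals, so p-values measure the spread between arrays, which may be technical.

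The main feature of the mitosis genes in these livers was how far they varied between arrays of the same genotype. The median gene of the 47 had a within-genotype SD of 0.45 in the first normalization and 0.49 in the second, against 0.15 for the median of all genes in both. That placed the median member at the 97.8th and the 98.3rd percentile of all genes, and 35 and 36 of the 47 lay above the 90th. Birc5, which encodes survivin of the chromosomal passenger complex, had the highest SD, 0.76 in the first and 0.90 in the second normalization. It was followed in the first by cyclin B2 (Ccnb2, 0.73), Top2a (0.72) and Mki67 (0.70), the proliferation marker. Foxm1 and Bub1b had the lowest, both at 0.12 in each normalization.

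**Figure D1:**
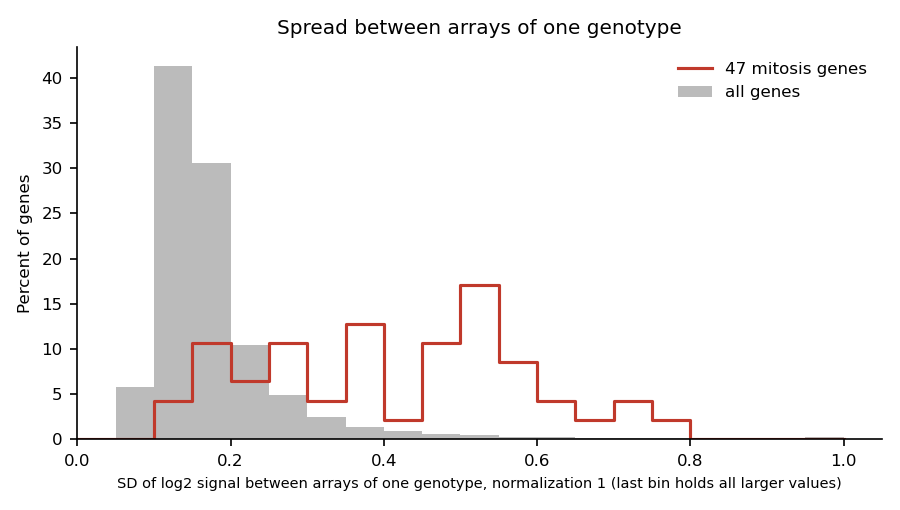
Distribution of the SD of log2 signal between arrays of one genotype in the first normalization (x axis), as percent of genes (y axis), with all genes as grey bars and the 47 mitosis genes as a red line. Most genes lie below 0.20, while the median mitosis gene lies at 0.45.

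The same arrays were high or low for most of these genes. Between the members, residuals from the genotype means had a median correlation of 0.70 over 1081 pairs and 32 arrays, against 0.01 over all gene pairs, and 71.6% of member pairs had r above 0.5, against 2.45% of all pairs. In the second normalization (27 arrays) the median was 0.77 and the share 78.4%, against 2.97%. Pairs share arrays and labelling, so these values describe the arrays. With the mean of the other members, 31 of the 47 genes had r above 0.8. Aurka (Aurora A, which matures the centrosomes) had 0.97, Birc5 and Cdk1 0.96, and Top2a and cyclin A (Ccna2) 0.95.

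A few probe sets did not follow. The chosen probe set of Bub1b (BubR1, a checkpoint kinase) had r = -0.49 and that of Tpx2 (which targets Aurora A to the spindle) r = -0.15. Other probe sets of the same genes, with a lower mean signal, did follow, at 0.89 and 0.86 for Bub1b and 0.84 and 0.91 for Tpx2. A further Tpx2 probe set did not (r = -0.19). Foxm1, the transcription factor that activates this gene group, had 0.21 with its chosen probe set and 0.68, 0.12 and -0.02 with the others. Kif2c had 0.47 with its chosen probe set and 0.91, 0.83 and 0.08 with the others. Cdc25c had 0.13, and its other probe set followed little as well (0.275). For these genes the values given here belong to the chosen probe set. Some other probe sets of Bub1b, Tpx2, Foxm1 and Kif2c followed the members better than the chosen one.

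In wt, the mean of the 47 genes ran from 5.79 in replicate 4 to 6.99 in replicate 3, with a median of 6.25. In 3aKO it ran from 5.85 in replicate 4 to 7.25 in replicate 1, with a median of 6.34. In 1KI it ran from 5.63 in replicate 1 to 6.495 in replicate 9, with a median of 6.04. The 3 ranges overlapped, and no 1KI array reached the highest arrays of the other genotypes. As mean ± SD the values were 6.35 ± 0.35 (n = 12), 6.41 ± 0.39 (n = 10) and 6.06 ± 0.31 (n = 10). In the second normalization wt averaged 6.29 ± 0.35 and 3aKO 6.36 ± 0.39. There the 5 3bKI arrays were at 6.52, 5.81, 7.17, 6.07 and 5.72 in replicates 1 to 5, a mean of 6.26 ± 0.60. Thus 3bKI held an array among the highest and an array among the lowest of that normalization. In these bulk samples a smaller number of dividing cells and less of each RNA per cell cannot be told apart.

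**Figure D2:**
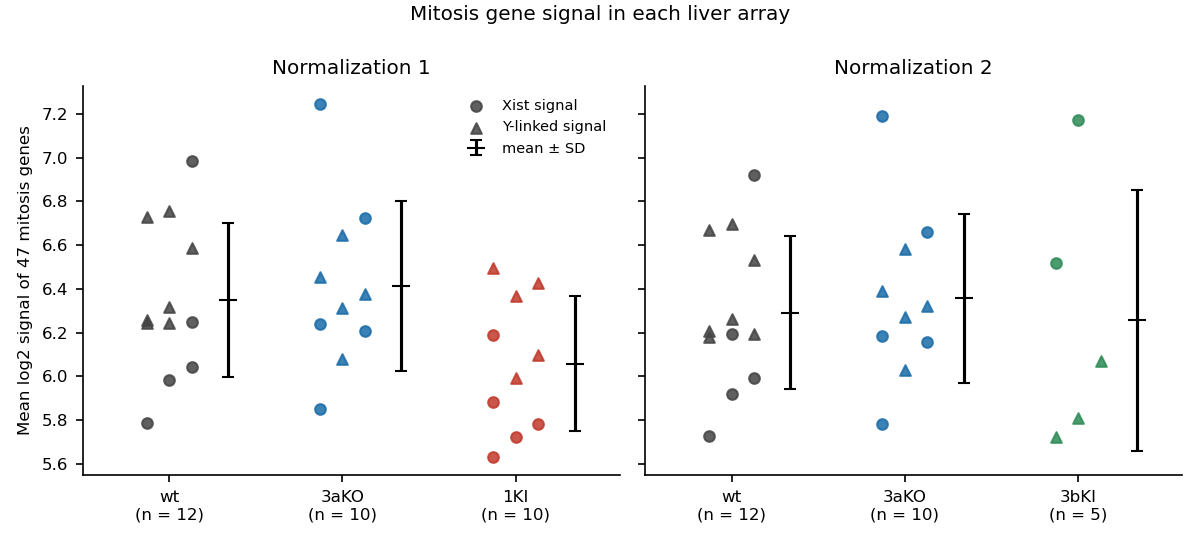
Mean log2 signal of the 47 mitosis genes (y axis) in each array, by genotype (x axis), with the first normalization at left and the second at right. Circles are arrays with Xist signal, triangles arrays with Y-linked signal, and black bars give the mean ± SD. 1KI arrays end at 6.495, below the highest wt and 3aKO arrays, and the 3bKI circles lie above the 3bKI triangles.

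Single arrays carried the extremes of many genes at once. In 3aKO, replicate 1 was the highest array for 36 of the 47 genes and replicate 4 the lowest for 36. In wt, replicate 3 was the highest for 24 and replicate 4 the lowest for 25. In 1KI, replicate 9 was the highest for 21, replicate 10 for 15, and replicate 1 was the lowest for 21. In 3bKI, replicate 3 was the highest for 42 and replicate 5 the lowest for 27.

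**Figure D3:**
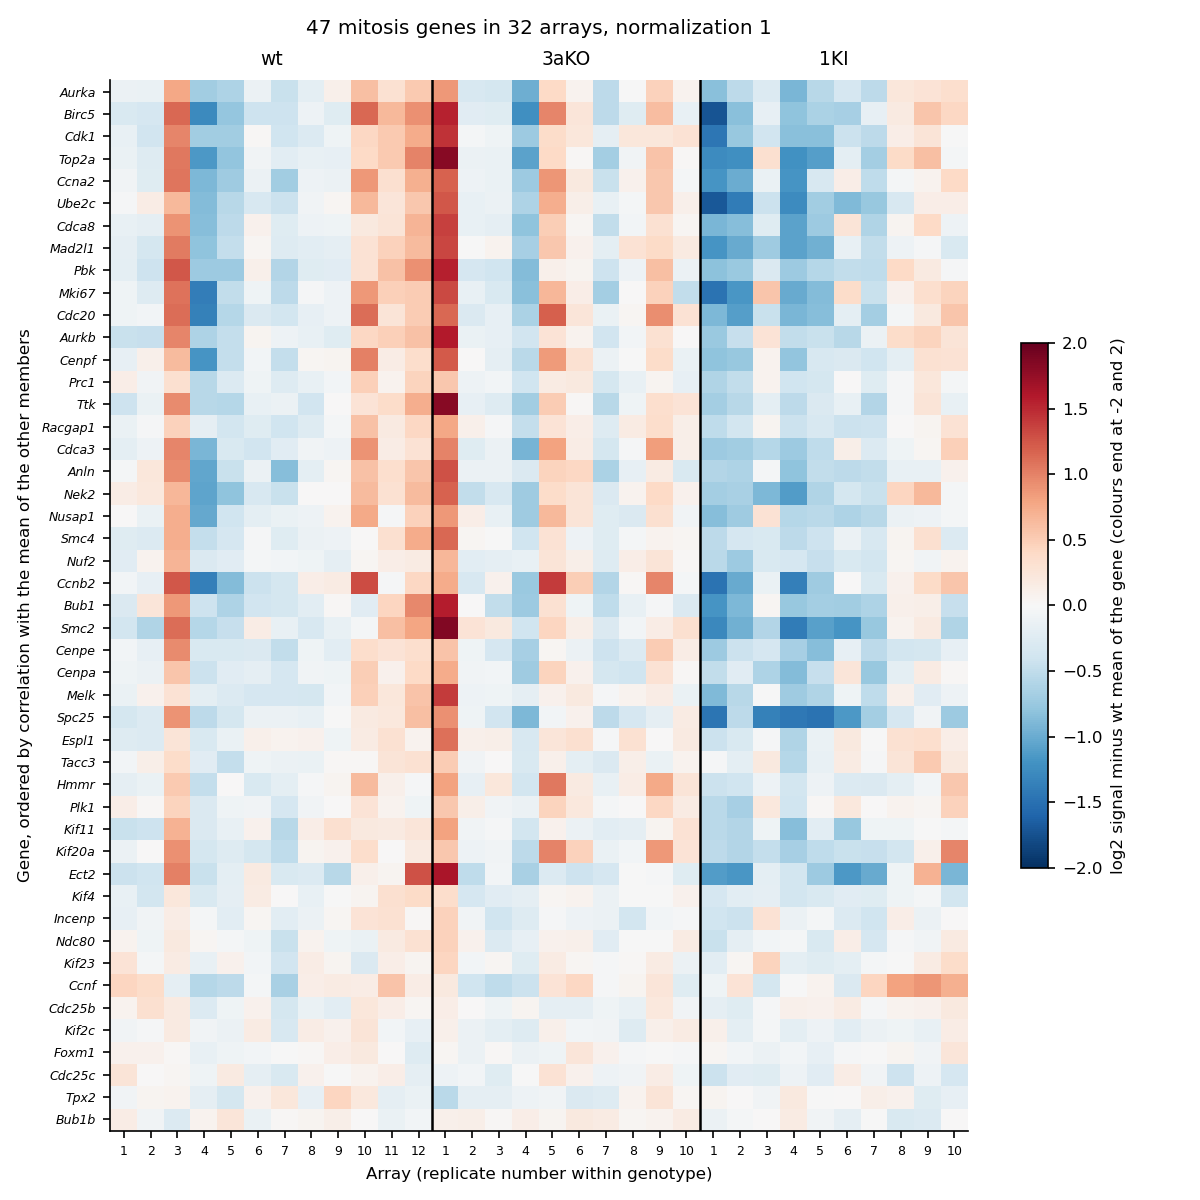
Log2 signal of each of the 47 mitosis genes minus its wt mean (colour) in the 32 arrays of the first normalization (columns, by genotype and replicate), with genes ordered by their correlation with the mean of the other members. Whole columns are red (wt replicate 3, 3aKO replicate 1) or blue (wt replicate 4, 1KI replicate 1), and the lowest rows, from Kif2c to Bub1b, follow the columns little.

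Outside the list, the 10 genes whose residuals followed the mean of the 47 most closely in the first normalization were all on a separate list of 74 mitosis genes. They were Stmn1 (r = 0.95), Arhgap11a (0.95), Cep55 (0.94), Ckap2 (0.93), Shcbp1 (0.93), Cdca5 (0.93), Aspm (0.93), Sgo2a (0.90), Plk4 (0.89) and Knstrn (0.89), over 32 arrays. That list was chosen with earlier results of these data known, so the match is a description and no independent support. In the second normalization Arhgef39 (0.94) and Pclaf (0.93) were among the 10 closest and stood on none of the lists. Stmn1 encodes a protein that destabilizes microtubules, and Cep55 and Sgo2a serve abscission and cohesion at the centromere. Markers of other cells followed the mean less. In the first normalization r was 0.36 for hepatocyte markers, 0.24 for Kupffer cell markers, 0.04 for lymphocyte and -0.04 for neutrophil and monocyte markers, -0.28 for erythroid, 0.19 for endothelial, 0.09 for stellate and -0.21 for cholangiocyte markers. With the hybridization controls r was -0.02, and with the 3′ minus 5′ difference -0.05. Each r is taken within genotypes, so it cannot show how the hybridization level, which differed between genotypes, relates to the members. In the second normalization, over 27 arrays, r was -0.50 for erythroid, 0.43 for Kupffer cell, 0.33 for lymphocyte, 0.33 for endothelial and 0.18 for hepatocyte markers, 0.12 for the hybridization controls and -0.26 for the 3′ minus 5′ difference. The part of these cells and measures in the variation of the mitosis genes was not tested.

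The first comparison asked whether loss of E2f3a changed these genes. None of the 47 was called in 3aKO against wt (limma, adjusted p under 0.05, Benjamini-Hochberg over all 18193 genes), against 0.176% of all genes (0.11% higher and 0.066% lower). None had an unadjusted p under 0.05 either, while 11.9% of all genes did. The changes ran from -0.13 to 0.28, with a median of 0.07, beside -0.01 for all genes. The median SE of a member was 0.18, against 0.07 for all genes. The 3 with the largest changes were Hmmr (0.28), a spindle-binding protein, Cdc20 (0.26) and Smc2 (0.26).

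Mki67 ran from 5.88 to 8.34 in wt (median 7.18) and from 6.42 to 8.58 in 3aKO (median 7.19). The groups overlapped over nearly their whole range, and the change was 0.01 ± 0.28 (SE; adjusted p = 0.99, limma). Top2a changed by 0.08, Cdk1 by 0.17, Ccna2 by 0.14, Plk1 by 0.17, Aurka by -0.03, Ube2c by 0.16, Mad2l1 by 0.20 and Foxm1 by 0.00, all uncalled. Without wt replicates 1 and 2 and 1KI replicate 6, the arrays whose controls stood apart, the count was again 0. E2f3 itself, by a probe set not known to lie in the deleted part, changed by -0.25 (adjusted p = 0.13).

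The second comparison asked what E2F1 did from the knock-in. In 1KI against wt 8 of the 47 genes fell and none rose. That is 17.0% of the list, beside 17.5% of all genes that fell, 10.2% that rose and 27.6% called in either direction. The median change was -0.30, against -0.05 for all genes, and 43 of the 47 changes were below 0, beside 64.4% of all genes. The 8 were 3 kinetochore genes (Spc25, Cenpe, Nuf2), 2 of the checkpoint and anaphase (Ube2c, Mad2l1), the condensin subunit Smc2, the motor Kif4 and the phosphatase Cdc25c, which activates Cdk1. All 9 kinetochore and passenger genes, all 8 mitotic kinases and all 4 chromosome structure genes had changes below 0. So had all 4 genes of cytokinesis and the mitotic entry ligase.

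Spc25 encodes a subunit of the Ndc80 complex, which binds microtubules to the kinetochore. It ran from 8.14 to 9.57 in wt (median 8.55) and from 7.20 to 8.60 in 1KI (median 7.74). Of the 10 1KI arrays 7 lay below every wt array. The change was -0.92 ± 0.19 (SE; 1.89-fold lower, adjusted p = 0.00038, limma), with 10 of 10 1KI arrays below the wt mean. Cenpe, a kinesin that moves chromosomes to the spindle middle, ran from 5.17 to 6.62 in wt and from 4.82 to 5.50 in 1KI, where 10 of 10 arrays were below the wt mean. It changed by -0.46 ± 0.14 (adjusted p = 0.016). Nuf2, another Ndc80 complex subunit, ran from 3.94 to 4.91 in wt and from 3.51 to 4.31 in 1KI, with 7 arrays below every wt array. It changed by -0.30 ± 0.11 (adjusted p = 0.036), at a low signal.

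Ube2c encodes the ubiquitin-conjugating enzyme that works with the anaphase-promoting complex. It ran from 6.46 to 7.98 in wt (median 7.34) and from 5.63 to 7.46 in 1KI (median 6.60), with 4 1KI arrays below every wt array. The change was -0.72 ± 0.22 (adjusted p = 0.013). Mad2l1 ran from 7.40 to 9.25 in wt (median 8.03) and from 7.02 to 8.18 in 1KI (median 7.61), and 10 of 10 1KI arrays were below the wt mean. It changed by -0.60 ± 0.20 (adjusted p = 0.023). Both pairs of ranges overlapped.

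Smc2, a core subunit of the condensins that compact chromosomes, ran from 6.60 to 8.31 in wt (median 7.05) and from 5.80 to 7.38 in 1KI (median 6.34). Here 6 of the 10 1KI arrays lay below every wt array. The change was -0.76 ± 0.23 (adjusted p = 0.013). A second Smc2 probe set changed by -0.56 and was called as well, which was so for 2 of the 8 genes. Kif4, a chromosome motor, changed by -0.24 ± 0.08 (adjusted p = 0.027) and Cdc25c by -0.20 ± 0.07 (adjusted p = 0.028), with overlapping ranges. The Cdc25c probe set followed the other members little.

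**Figure D4:**
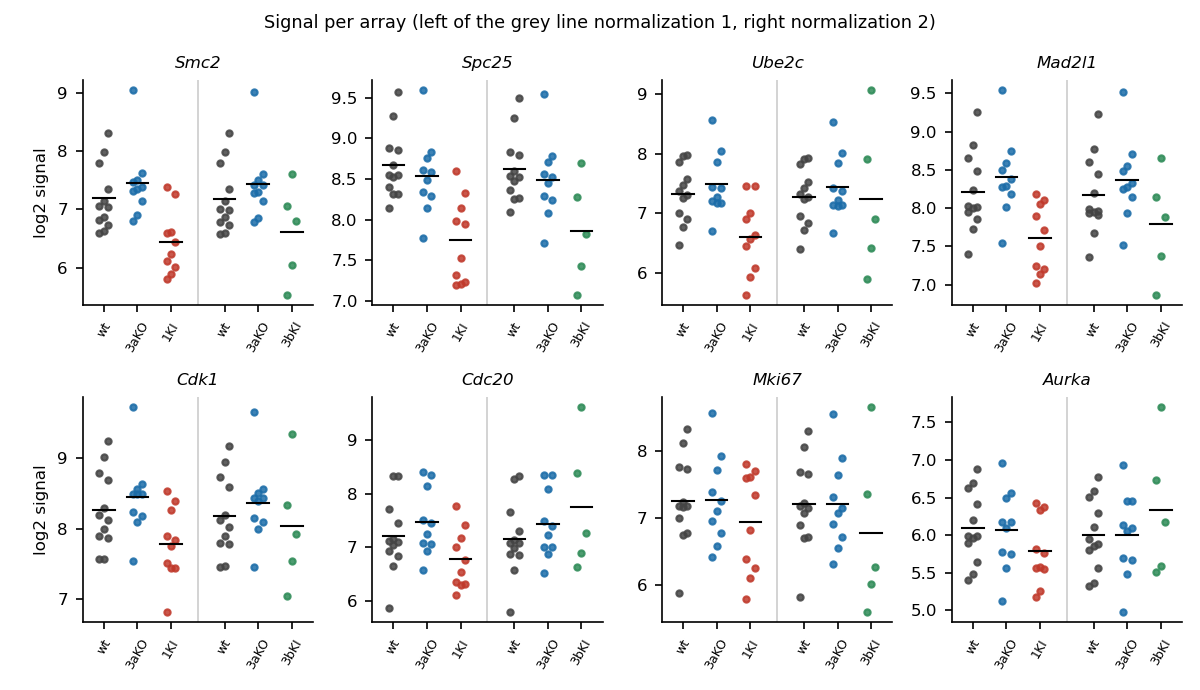
Log2 signal per array (y axis) of 8 mitosis genes by genotype (x axis), with the first normalization left of the grey line and the second right of it. Points are arrays and black lines are group means. 1KI points (red) sit low for Smc2, Spc25, Ube2c and Mad2l1 with ranges that overlap wt, and the 3bKI points (green) spread over 2.06 units for Smc2 and 3.17 for Ube2c.

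The widely used proliferation genes were lower in 1KI than in wt on average and did not pass the test. Mki67 ran from 5.78 to 7.81 in 1KI (median 7.09), a change of -0.32 ± 0.28 (adjusted p = 0.42). Top2a changed by -0.44 (adjusted p = 0.26), Cdk1 by -0.48 (0.094), Ccna2 by -0.38 (0.25), Cdc20 by -0.44 (0.20), Aurka by -0.32 (0.24), Plk1 by -0.06 (0.73) and Foxm1 by -0.01 (0.87). Ccnf, a cyclin F-box protein, had the highest change, 0.24 (adjusted p = 0.27).

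These calls moved with the hybridization control level, which was high in all 1KI arrays and in only 2 wt arrays. With that level as a block, 0 of the 47 genes were called, beside 4.30% of all genes, and the median change was -0.19. Spc25 then changed by -0.61 (adjusted p = 0.33), Ube2c by -0.78 (0.29), Smc2 by -0.27 (0.76), Mad2l1 by -0.34 (0.65) and Kif4 by 0.02 (0.95). The 2 wt arrays at the high level, both with Y-linked signal, had a member mean of 6.24, the lowest of the 7 wt arrays with that signal, which averaged 6.45 ± 0.23. Of the others, replicates 8 and 9 lay close to them (6.26 and 6.32), and replicates 10, 11 and 12 were at 6.73, 6.59 and 6.76. The 5 1KI arrays with Y-linked signal averaged 6.28 ± 0.22. The mean of the hepatocyte markers per array was higher in 1KI at the median. Of the 11 markers 2 were called higher, none lower and 9 not called, with a median change of 0.02. The part of these markers in the result was not tested. In arrays with Xist signal only, 1 of the 47 genes was called (beside 14.7% of all genes), and the median was -0.38. In arrays with Y-linked signal only, 2 were called (beside 13.0% of all genes), and the median was -0.17. Without wt replicates 1 and 2 and 1KI replicate 6 the count was 8, in a fit where level and genotype cannot be told apart.

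Against 3aKO the 1KI livers differed in more genes. In 1KI against 3aKO 13 of the 47 fell and none rose, which is 27.7% of the list, beside 19.0% of all genes that fell, 11.9% that rose and 31.0% called in either direction. The median was -0.37, against -0.03 for all genes, and 43 of 47 changes were below 0. Of the 5 checkpoint and anaphase genes, Mad2l1, Cdc20, Ube2c and Bub1b were called, the last only by a probe set that did not follow the other members. The others were Spc25, Cenpe and Nuf2 of the kinetochore, Smc2, Cdk1, Cdc25c, the kinase Melk, the motor Kif20a and Hmmr. This comparison and the one with wt share the 1KI arrays, so their lists are not independent.

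Smc2 ran from 6.80 to 9.04 in 3aKO (median 7.37), and 8 of 10 1KI arrays lay below every 3aKO array. The change was -1.02 ± 0.24 (SE; adjusted p = 0.0013, limma). Ube2c ran from 6.70 to 8.57 in 3aKO (median 7.35), with 6 1KI arrays below all of them, and changed by -0.88 ± 0.23 (adjusted p = 0.0030). Mad2l1 ran from 7.54 to 9.54 (median 8.34), with 5 1KI arrays below all of them, and changed by -0.80 ± 0.21 (adjusted p = 0.0032). In all 3 genes 10 of 10 1KI arrays were below the 3aKO mean. Of the other probe sets of Smc2, 2 were called as well (-1.04 and -0.73) and 2 were not (-0.09 and -0.08).

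Spc25 ran from 7.77 to 9.59 in 3aKO (median 8.54) and changed by -0.79 ± 0.20 (adjusted p = 0.0022). Melk, a kinase of dividing and stem cells, ran from 4.38 to 5.95 in 3aKO and from 3.67 to 4.66 in 1KI, and changed by -0.50 ± 0.16 (adjusted p = 0.015). Hmmr ran from 5.44 to 6.86 in 3aKO and from 5.38 to 6.34 in 1KI, and changed by -0.44 ± 0.15 (adjusted p = 0.023). All 3 pairs of ranges overlapped. Nuf2 changed by -0.37 ± 0.11 (adjusted p = 0.012). Bub1b changed by -0.19 ± 0.06 (adjusted p = 0.010) by the probe set that did not follow the other members, and its other probe sets, at -0.19 and -0.39, were not called.

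Cdk1 ran from 7.54 to 9.72 in 3aKO (median 8.49) and from 6.82 to 8.53 in 1KI (median 7.80). The ranges overlapped, 9 of 10 1KI arrays were below the 3aKO mean, and the change was -0.66 (1.58-fold lower, adjusted p = 0.025). Cdc20 ran from 6.58 to 8.40 in 3aKO (median 7.35) and from 6.11 to 7.77 in 1KI (median 6.64), and changed by -0.70 (adjusted p = 0.041). Cenpe changed by -0.40, Kif20a by -0.52 and Cdc25c by -0.19, the last by a probe set that followed the other members little. Not called were Ccna2 (-0.52, adjusted p = 0.11), Top2a (-0.52, 0.19), Mki67 (-0.33, 0.42), Aurka (-0.28, 0.31), Plk1 (-0.23, 0.14) and Foxm1 (-0.02, 0.85).

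No 3aKO array was at the higher hybridization level, so with the level as a block this contrast is estimated through the wt arrays. There 0 of the 47 were called, beside 2.29% of all genes, with a median of -0.24. Smc2 then changed by -0.44 and Ube2c by -0.96. The count fell to 8 without 3aKO replicate 1, without 3aKO replicate 5 or without 1KI replicate 1, and was 12 without wt replicates 1 and 2 and 1KI replicate 6. Of 11 hepatocyte markers 3 were called higher in 1KI, none lower and 8 not called, with a median change of 0.03. Of 14 Kupffer cell and macrophage markers 5 fell in this comparison (0 in 1KI against wt), and their mean per array ran from 8.46 to 10.02 in 1KI and from 8.97 to 9.87 in 3aKO. The part of these cells in the result was not tested. In arrays with Xist signal only, 7 of the 47 genes were called (beside 25.8% of all genes), with a median of -0.63. In arrays with Y-linked signal only, 1 was called (beside 11.9% of all genes), with a median of -0.09. The difference between the 2 kinds of array was called for 0 of the 47 genes (beside 0.0165% of all genes), with 10 at an unadjusted p under 0.05, a median of 0.55 and 3 of 47 below 0.

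**Figure D5:**
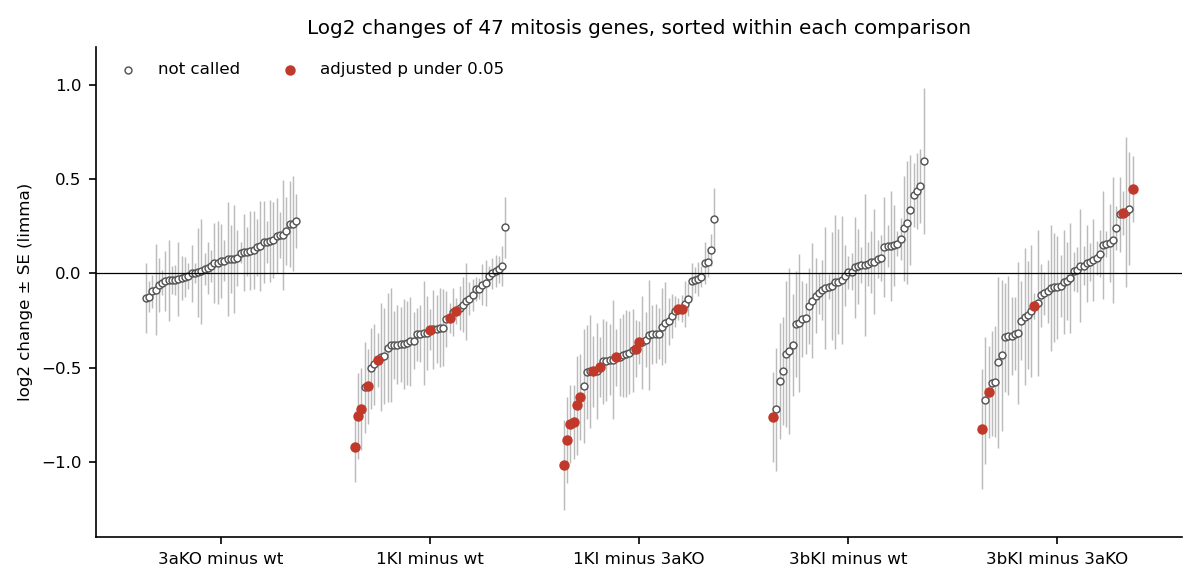
Log2 change ± SE (y axis) of each of the 47 mitosis genes, sorted within each of the 5 comparisons (x axis), with called genes in red. The 1KI comparisons lie mostly below 0 with 8 and 13 called, 3aKO against wt has none, and the 3bKI comparisons straddle 0.

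The third question was what E2F3b did from the knock-in. In 3bKI against wt 1 of the 47 genes was called, Spc25, which fell. That is 2.13% of the list, beside 29.2% of all genes called in either direction, 15.9% that fell and 13.4% that rose. The median change was 0.00, as for all genes, and 23 of the 47 were below 0. The SE of a member was 0.24 at the median.

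Spc25 was at 8.28, 7.08, 8.70, 7.82 and 7.43 in 3bKI replicates 1 to 5 and from 8.09 to 9.49 in wt (median 8.53). Of the 5 arrays 3 lay below every wt array. The change was -0.76 ± 0.24 (SE; 1.69-fold lower, adjusted p = 0.015, limma). Its other probe set, with a lower signal, rose by 0.27 (adjusted p = 0.015 over all probe sets), so the 2 probe sets of Spc25 went opposite ways here.

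Ect2, which activates RhoA for cytokinesis, and Cdc20 had the next largest changes and were not called. Ect2 was at 4.92, 3.95, 5.91, 3.79 and 4.03 in the 5 arrays, a change of -0.72 (adjusted p = 0.10). Cdc20 was at 8.38, 6.63, 9.61, 7.26 and 6.89 in them, against 5.79 to 8.32 in wt, a change of 0.59 (adjusted p = 0.27). Replicates 1 and 3 were thus above every wt array for Cdc20 and the other three were not. Mki67 changed by -0.43 (adjusted p = 0.46), Top2a by -0.27 (0.65), Cdk1 by -0.14 (0.78), Ccna2 by -0.05 (0.94), Plk1 by 0.46 (0.075), Aurka by 0.34 (0.43), Ube2c by -0.04 (0.95), Mad2l1 by -0.38 (0.32) and Foxm1 by 0.16 (0.081).

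In 3bKI against 3aKO 2 of the 47 rose (Ccnf and Tpx2) and 3 fell (Smc2, Spc25 and Bub1b). That is 10.6% of the list, beside 34.2% of all genes called, 16.5% that rose and 17.7% that fell, and the median was -0.07, against 0.02 for all genes. Smc2 was at 7.05, 5.54, 7.60, 6.80 and 6.04 in 3bKI and from 6.79 to 9.01 in 3aKO. The ranges overlapped, and it changed by -0.83 ± 0.32 (adjusted p = 0.044, limma). Spc25 changed by -0.63 ± 0.25 (adjusted p = 0.047), and its other probe set rose by 0.25 (adjusted p = 0.027 over all probe sets), again the opposite way.

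Ccnf was at 6.55, 6.98, 7.02, 7.15 and 7.13 in 3bKI and from 6.09 to 6.91 in 3aKO. Of these 5 arrays 4 lay above all 3aKO arrays, and the change was 0.45 ± 0.18 (adjusted p = 0.049). Tpx2 changed by 0.32 ± 0.12 (adjusted p = 0.032) and Bub1b by -0.17 ± 0.07 (adjusted p = 0.045), both by the probe sets that did not follow the other members. Of the other genes always given, Mki67 changed by -0.44, Top2a by -0.32, Cdk1 by -0.33, Ccna2 by -0.23, Cdc20 by 0.33, Plk1 by 0.31, Aurka by 0.34, Ube2c by -0.20, Mad2l1 by -0.58 and Foxm1 by 0.15, none called.

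Both 3bKI counts moved with array quality measures. With the hybridization level as a block 0 genes were called in each. With the 3′ minus 5′ difference as a covariate the counts were also 0, with medians of -0.52 against wt and -0.75 against 3aKO. All 3bKI arrays were at the higher level, with 2 wt arrays and no 3aKO array. Their 3′ minus 5′ difference (0.28 to 0.36) lay below every wt (lowest 0.475) and 3aKO array (lowest 0.545). These fits can therefore hardly tell the genotype from these measures, and losing calls in them decides nothing. Leaving out 1 array at a time gave 1 to 3 genes against wt, with 3 without 3bKI replicate 3, and 0 to 7 against 3aKO, with 0 without 3bKI replicate 4. Without wt replicates 1 and 2 the counts were 2 and 4.

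The 3bKI arrays split by sex signal. Replicates 1 and 3, with Xist signal, had member means of 6.52 and 7.17, above the wt mean of 6.15 among arrays with Xist signal. Replicate 1 lay inside the range of those wt arrays (5.73 to 6.92) and replicate 3 above it. Replicates 2, 4 and 5, with Y-linked signal, had 5.81, 6.07 and 5.72, below every wt array with Y-linked signal (lowest 6.18). The 3aKO arrays ran from 5.78 to 7.19 with Xist signal and from 6.03 to 6.58 with Y-linked signal. Replicates 1, 3 and 4 of 3bKI lay inside those ranges. Tested within arrays with Xist signal alone, 8 of the 47 genes rose and none fell in 3bKI against wt (19.4% of all genes called, median change 0.53). Within arrays with Y-linked signal alone, 23 fell and none rose (19.5% of all genes called, median -0.48). The medians of opposite sign met near 0 when the arrays were pooled. The difference of the 3bKI change between the 2 kinds of array was then tested gene by gene. These tests by sex signal were added after seeing the data. Against wt 4 of the 47 genes were called (8.51%, beside 0.923% of all genes), all lower in arrays with Y-linked signal. The difference was below 0 for 46 of the 47 genes, with a median of -1.17, against -0.02 for all genes.

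Plk1, which drives centrosome maturation and spindle assembly, was at 7.11 and 7.76 in the 3bKI arrays with Xist signal and at 5.85, 6.13 and 6.05 in those with Y-linked signal. The wt means were 6.04 and 6.17. The difference was -1.55 ± 0.24 (SE; adjusted p = 0.0012, limma). Ube2c was at 7.92 and 9.07 against 6.42, 6.91 and 5.90, with wt means of 6.97 and 7.50, a difference of -2.62 ± 0.50 (adjusted p = 0.0070). Racgap1, which builds the central spindle, differed by -1.46 ± 0.34 (adjusted p = 0.032) and Nusap1, a spindle microtubule binder, by -1.85 ± 0.46 (adjusted p = 0.045).

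Against 3aKO only Plk1 was called (-1.38 ± 0.25, adjusted p = 0.0058; 2.13% of the list, beside 0.786% of all genes), with a median difference of -0.77. In 1KI against wt none of the members was called, beside 0.022% of all genes, with a median of 0.19 and 12 of 47 below 0, and in 3aKO against wt none, as for all genes (0%), with a median of -0.28 and 42 of 47 below 0. The 3bKI result rests on 2 arrays against 3. The fit takes 1 spread per gene for both kinds of array. In the second normalization the SD of the member means was 0.46 with Xist and 0.23 with Y-linked signal in wt. It was 0.54 and 0.20 in 3aKO, so the p-values of these differences may be too small. Without 3bKI replicate 3 only 1 gene was called against wt and 0 against 3aKO, and without replicate 1 the counts were 9 and 3. The 2 arrays with Xist signal also had the highest hybridization controls of the 5 (11.77 and 11.95, against 11.23 to 11.55) and the lowest 3′ minus 5′ difference (0.28 and 0.28, against 0.31 to 0.36). All 5 stood at the higher hybridization level, so a block for that level cannot tell these arrays apart. The part of their control values was not tested. With the 3′ minus 5′ difference as a covariate 2 genes were called against wt, Plk1 and Ube2c.

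The counts of the other lists are read against the shares of all genes called. For 1KI these were 27.6% (wt as control) and 31.0% (3aKO as control), for 3bKI 29.2% and 34.2%, and for 3aKO 0.176%. Of the 19 genes of the MuvB, B-MYB and E2F machinery, 0 were called in 3aKO against wt, 1 rose and 2 fell in 1KI against wt, 3 and 5 in 1KI against 3aKO, 4 and 6 in 3bKI against wt, and 3 and 5 in 3bKI against 3aKO. That is 15.8%, 42.1%, 52.6% and 42.1% of the list in the 4 knock-in comparisons, the first below the share of all genes. Lin54, the MuvB subunit that binds the CHR, fell in all 4 knock-in comparisons, by 0.50 in 1KI and 1.14 in 3bKI against wt (adjusted p = 0.0089 and 2.2e-05). Lin37, a MuvB subunit needed for repression, rose by 0.66 in 3bKI against wt (adjusted p = 8.5e-07). Lin52 rose by 0.35 in 1KI against wt, and Tfdp2, an E2F partner, fell by 0.18 in 1KI and by 0.40 in 3bKI. E2f4 rose by 0.34 in 3bKI against wt. Rbl1 (p107) fell by 0.65 and Lin9 by 0.51 in 1KI against 3aKO. The hybridization level was high in all knock-in arrays. With it as a block, 4.3% (wt as control) and 2.29% (3aKO as control) of all genes were called for 1KI. For 3bKI the shares were 8.7% and 6.77%. The changes of these other genes come from fits without that level, and their values with it as a block are not given here.

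Mybl2 (B-MYB) changed by -0.07 in 1KI against wt (adjusted p = 0.39) and rose by 0.22 in 3bKI (adjusted p = 0.014). E2f1 changed by -0.25 in 1KI against wt (adjusted p = 0.086), fell by 0.29 in 1KI against 3aKO (0.049) and changed by -0.14 in 3bKI (0.46). E2f2 changed by -0.09 in 1KI (0.32) and rose by 0.29 in 3bKI (0.043). E2f3 changed by -0.03 in 1KI (0.77) and fell by 0.24 in 3bKI (0.049). The E2f1 signal was thus not called higher in the E2F1 knock-in, by a probe set whose place in the knock-in transcript is not known here.

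Of 14 genes that brake entry into or exit from mitosis, none was called in 3aKO against wt, 3 rose and 3 fell in each of the 1KI comparisons, 3 rose and 1 fell in 3bKI against wt, and 4 rose and 1 fell in 3bKI against 3aKO. That is 42.9%, 42.9%, 28.6% and 35.7% of the list, and both 3bKI shares were close to those of all genes. Cdkn1a, the p21 inhibitor of cyclin-dependent kinases, rose by 0.81 in 1KI and 1.06 in 3bKI against wt (adjusted p = 0.0016 and 0.0011). Cdkn1b (p27) rose by 0.94 and 0.79 (adjusted p = 4.3e-08 and 0.00015). Wee1, the kinase that holds Cdk1 inactive, fell by 0.83 and 1.67 (adjusted p = 0.0014 and 2.7e-08). Btg2 rose by 0.57 in 1KI, Fzr1, the Cdh1 activator of the anaphase-promoting complex, rose by 0.55 in 3bKI, and Sfn fell by 0.35 in 1KI against 3aKO.

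Among 14 subunits and partners of the anaphase-promoting complex, 0 were called in 3aKO against wt, 1 rose and 5 fell in 1KI against wt, 1 and 7 in 1KI against 3aKO, 2 and 3 in 3bKI against wt, and 2 and 5 in 3bKI against 3aKO. That is 42.9%, 57.1%, 35.7% and 50% of the list. Cdc27 fell by 0.43 in 1KI and 0.59 in 3bKI against wt, and Anapc11, the catalytic RING subunit, rose by 0.50 and 0.76. Cdc26 fell by 0.36 and Cdc16 by 0.20 in 1KI against wt, and Anapc1 by 0.23 and Anapc5 by 0.24 in 3bKI. Anapc4 fell by 0.32 in 1KI against 3aKO. Of 74 other mitosis genes, 0 were called in 3aKO against wt, 1 rose and 14 fell in 1KI against wt, 2 and 22 in 1KI against 3aKO, 4 and 1 in 3bKI against wt, and 7 and 3 in 3bKI against 3aKO. That is 20.3%, 32.4%, 6.76% and 13.5% of the list, below the share of all genes in all but 1KI against 3aKO, where it was close to it. In 1KI against wt Zwint, of the outer kinetochore, fell by 1.06, Haus1, of the augmin complex, by 0.62, Cenpp by 0.47 and Ckap5, which lengthens microtubules, by 0.28. Cenpm fell by 0.83 in 1KI against 3aKO. The tubulins Tubb4b and Tubb5 rose by 1.16 and 0.63 in 3bKI against wt, as did Pttg1 (securin) by 0.35, while Haus1 fell by 0.49. Gtse1 rose by 0.30 in 3bKI against 3aKO.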

How the data were processed

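Total RNA of mouse liver (5 µg, Trizol, biotin cRNA, per the labels) was hybridized to Affymetrix arrays. The authors deposited normalized expression on a log2 scale. How they normalized it is not named in the labels, and the base of the logarithm was inferred from the values, which lie between 2.13 and 15.06. The 59 columns hold 37 arrays in 2 normalizations, and the 22 arrays in both correlated at 0.9993 or more. Of 45101 probe sets, 34945 carried 1 symbol, 932 several and 9160 none, and 64 were controls. No further normalization or filter on low signal was applied. The number of arrays limits the precision.

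Every gene was tested in R 4.3.3 by limma 3.58.1, using lmFit then eBayes on all arrays of a normalization without a replicate block, with Benjamini-Hochberg adjustment over 18193 genes at 0.05. "Called" means an adjusted p under 0.05. On simulated data with 200 changed genes, 84.6% (3bKI against wt) to 92.6% (3aKO against wt) of changes of 0.5 were recovered among all genes. Their median SE was 0.07 to 0.08, against 0.18 to 0.25 for the members, so recovery among members was not measured.

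Genes named are 10 fixed members with a probe set, every called member, the 3 largest changes where fewer than 3 were called, 5 fixed regulators, up to 4 called genes with the smallest p of each other pathway list, and the 10 genes that followed the members best. Of the 10 that followed best in the second normalization, those on none of the lists are named. The members and lists were chosen with earlier results of these data known. Sex was read from Xist and from Ddx3y, Eif2s3y, Kdm5d and Uty. Alternatives were other fits, filters, probe set rules, scalings, covariates and arrays left out.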

Additional observations from a re-analysis of the deposited data

Results flagged for a closer look

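In 69 groups of values tested for an array far from the others, 7 stood apart, where chance gives about 1 in 20 groups. The genes vary together and 6 of the 7 come from 2 arrays, so these are not independent. In 3aKO, replicate 1 lay above the next array for Cdk1 (9.72, next 8.64), Melk (5.95, next 4.75) and Smc2 (9.04, next 7.63). In 1KI, replicate 10 lay above the next array for Foxm1 (7.14, next 6.94), Hmmr (6.34, next 5.76) and Kif20a (6.28, next 5.40). In 3bKI, replicate 1 lay below the others for Ccnf (6.55, next 6.98).

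The change in 3bKI differed between arrays with Y-linked and with Xist signal by a test of that difference (limma, adjusted over all genes) for Plk1 (-1.55), Ube2c (-2.62), Racgap1 (-1.46) and Nusap1 (-1.85) against wt, and for Plk1 (-1.38) against 3aKO.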

How the results depend on the processing

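Counts of called genes moved by over 1.5 times as follows. Among genes above the median signal, where only 12 members (13 in the second normalization) could be tested, the counts were 4 (1KI against wt), 6 (1KI against 3aKO) and 2 (3bKI against 3aKO), all called without that filter too. In 1KI against wt (8) they were 0 with the hybridization level as a block, with or without the sex index. They were 1 in arrays with Xist signal (beside 14.7% of all genes) and 2 in arrays with Y-linked signal (beside 13.0%). In 1KI against 3aKO (13) they were 0, 0, 7 (beside 25.8% of all genes) and 1 (beside 11.9%) under the same settings. In 3bKI against wt (1) they were 0 with the mean of a gene's probe sets, with either block and with the 3′ minus 5′ difference as a covariate (median -0.52), 2 with the sex index as a covariate or without wt replicates 1 and 2, 8 in arrays with Xist signal (all higher, median 0.53) and 23 in arrays with Y-linked signal (all lower, median -0.48). In 3bKI against 3aKO (5) they were 2 in a fit on the 2 groups and after quantile normalization. They were 1 with probe set means or array weights, 3 with equal array medians, and 0 with either block and with the covariate (median -0.75). In arrays with Xist signal they were 2 (beside 26.4% of all genes), and in arrays with Y-linked signal 19 (beside 19.6%). Apart from that filter, the cause was not tested. Kif4 turned sign in 1KI against wt with the hybridization level as a block (0.022, and 0.0735 with the sex index), Ccnf in 3bKI against 3aKO with that block (-0.028), and Ube2c in 3bKI against wt was 1.53 in arrays with Xist signal (adjusted p = 0.037).

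For the difference by sex signal in 3bKI against wt (4), 2 genes were called with probe set means (median -0.71) or with the covariate and 8 after quantile normalization; against 3aKO (1), 0 among genes above the median signal, where Plk1 could not be tested, and 2 after quantile normalization.

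Leaving out 1 array at a time gave 0 genes in 3aKO against wt (medians -0.05 to 0.13), 6 to 9 in 1KI against wt (-0.36 to -0.23), 8 to 16 in 1KI against 3aKO (-0.46 to -0.27), 1 to 3 in 3bKI against wt (-0.19 to 0.11), 0 to 7 in 3bKI against 3aKO (-0.26 to 0.04), and for the difference by sex signal 1 to 15 against wt (-1.45 to -0.90; 15 without wt replicate 3, 6 without 3bKI replicate 4, 2 without wt replicate 4, 5 or 7 or 3bKI replicate 5) and 0 to 3 against 3aKO (-1.08 to -0.48).

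Replicate numbers did not pair the arrays: same-numbered arrays had residual correlations from -0.35 to 0.38, and in no comparison were all above 0.1. With a replicate block the counts were 0, 5 and 16 in the first normalization and 2 and 6 in the second, and for the difference by sex signal 0 against wt (median -0.28) and 0 against 3aKO (-0.19).

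The 5 arrays of 3bKI and the spread of these genes limit precision.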
